A study of Mus musculus with 12 samples.

Results

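The genes described here encode the extracellular matrix of the mouse kidney cortex and the proteins that build, cut and bind it. They were chosen by name: every clone whose platform symbol marks a collagen, laminin chain, nidogen, fibrillin, fibulin, Mmp, Timp, Adamts, Lox, serpin, thrombospondin or integrin, together with Fn1, Sparc, Dcn, Bgn, Lum, Postn and Vim. The rule found 81 of the 15600 clones on the array, which belong to 65 genes. Of these, 54 genes were bright enough to be tested and 11 were not. No fibrillin, fibulin, Lox or thrombospondin gene was among the genes tested.

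The menopausal/diabetic group was 3 mice given VCD and streptozotocin (STZ), and the diabetic group was 3 mice given STZ. STZ kills the beta cells that make insulin, and VCD (vinylcyclohexene diepoxide) depletes the small follicles of the ovary, which gives a model of menopause. All animals were therefore diabetic, and there was no group with VCD alone and none without STZ. Cortex RNA was taken 6 weeks after STZ; the sources used here give no strain and no age. Amplified RNA of animal pairs was hybridised in 2 colours, Alexa Fluor 546 and Alexa Fluor 647, to 12 arrays of spotted cDNA, 6 of them between the groups and 3 within each group. Each animal was on 4 arrays. An animal's level is given as a log2 value with the mean of all 6 animals at 0, and a difference between groups is menopausal/diabetic minus diabetic.

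In the kidney, basement membranes of collagen IV, laminin and nidogen carry the tubules and the glomerular filter, while fibrillar collagens with small proteoglycans such as decorin and biglycan fill the interstitium. Proteases of the Mmp and Adamts families cut this matrix, Timp proteins and serpins inhibit proteases, and integrins anchor cells to it. Thickened basement membranes and accumulated mesangial matrix are hallmarks of diabetic kidney disease.

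The scanner software called 30.5% to 57.4% of an array's spots detected in the Alexa Fluor 546 channel. Detection was read in that channel alone, and a clone counts as detected on an array where either of its spots was. Precision is limited by how few animals and arrays there were. Of the 54 members tested, 8 were detected on all 12 arrays, 24 on 6 or more and 30 on fewer than 6. Kidney cortex was recognisable from Lrp2 and Miox of the proximal tubule and Podxl of podocytes, which were detected on 12 arrays each. Each level rests on the array titles. When an array was predicted from the levels fitted without it, the correlation across the 9955 genes and unnamed clones tested ran from -0.26 to 0.49 and was above 0 on 6 of 12 arrays. Across the 54 members it ran from -0.20 to 0.52 and was above 0 on 8 arrays. The identifiers inside 11 of the 12 files match their titles; those of the array of diabetic 2 and diabetic 3 do not.

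Adding VCD to diabetes was compared first. No matrix gene passed the threshold, and most differences were small. limma's test of the 6 animal levels (two-sided, Benjamini-Hochberg) covered 9955 genes and unnamed clones, of which 0 (0%) had an adjusted p under 0.05. Among the 54 members 0 did, the smallest adjusted p being 0.536, for Nid1. At an unadjusted p under 0.05 there were 3 members, Dcn on the higher side and Nid1 and Serpinb6a on the lower side, against 834 of all tested (8.38%). The higher side held 5.12% of all tested and the lower side 3.25%. The median difference of the members was 0.016, against -0.0021 over all tested; 32 members lay above 0 and 22 below, between -0.33 and 0.20. The groups did not overlap for 7 members, against 14.3% of all tested. Of these 7, Dcn, Nid2, Lama3 and Col6a5 were higher in the menopausal/diabetic animals (7.63% of all tested) and Nid1, Itga9 and Serpinb6a lower (6.65%).

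**Figure D1:**
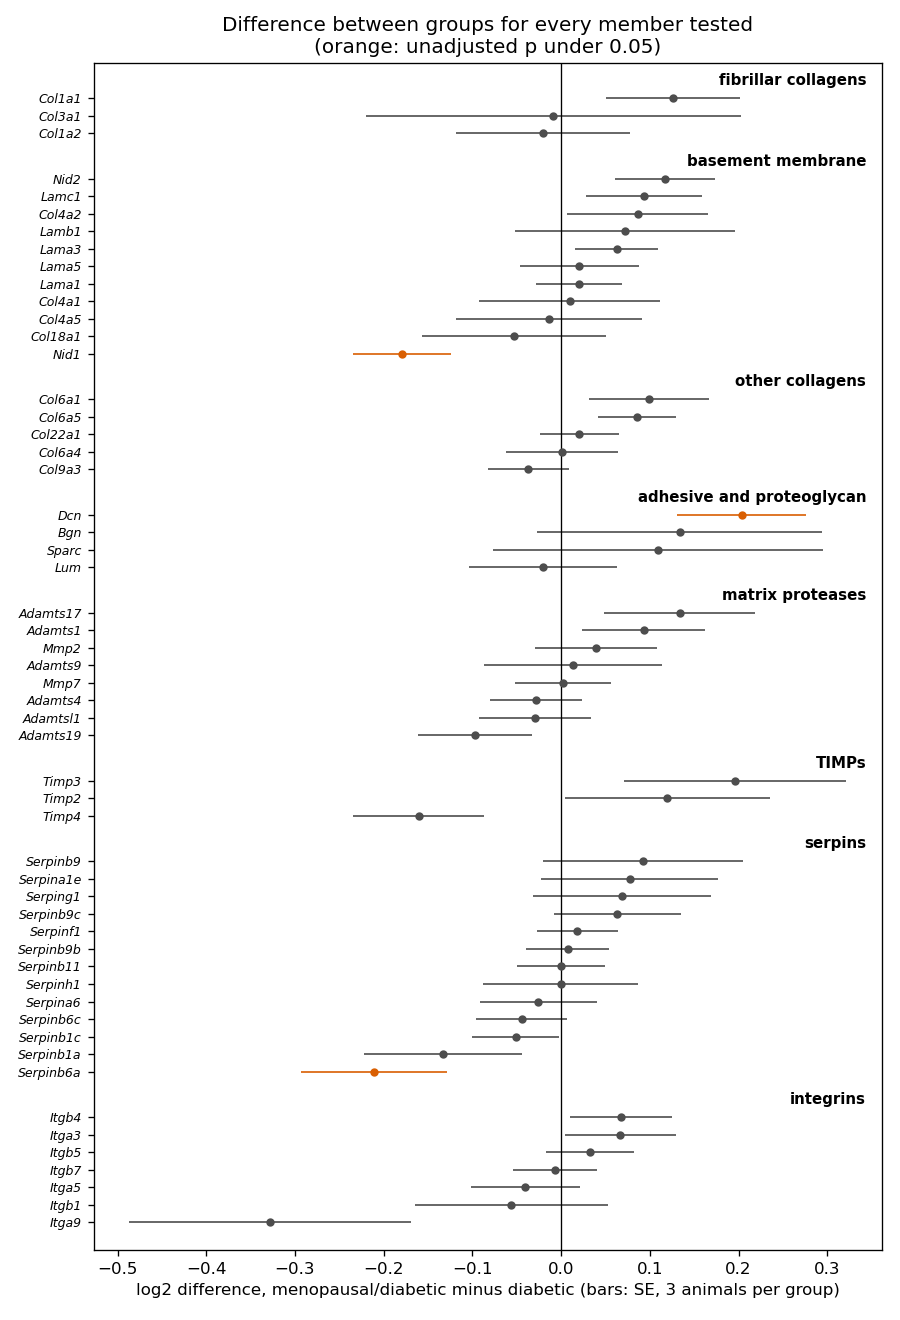
Log2 difference between groups, menopausal/diabetic minus diabetic, for the 54 members tested, ordered by role; points are differences, bars the standard error with 3 animals per group, and orange marks an unadjusted p under 0.05. The members spread on both sides of 0 from -0.33 (Itga9) to 0.20 (Dcn), and Dcn, Nid1 and Serpinb6a are the 3 in orange.

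Among the fibrillar collagens, the rope-forming collagens of the interstitium, 3 genes were tested and none had an unadjusted p under 0.05. Col1a1, the first chain of type I collagen, had levels of -0.0072, 0.09 and 0.10 in menopausal/diabetic animals and 0.00074, 0.02 and -0.21 in diabetic animals. The groups overlapped, the lowest animal was diabetic 3, and the clone was detected on 1 array. The difference of Col1a1 was 0.13 ± 0.08 (SE, 3 animals per group, adjusted p = 0.684, limma). Col1a2, its partner chain, differed by -0.02 ± 0.10 and Col3a1, the chain of type III collagen, by -0.0086 ± 0.21, a standard error larger than that of any other member.

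Of the 11 basement membrane genes, 8 lay above 0 and 3 below, with a median of 0.02. The nidogens, which link the laminin and collagen IV networks, lay on opposite sides. Nid1 had levels of -0.08, -0.17 and -0.02 in menopausal/diabetic animals, against 0.07, 0.07 and 0.13 in diabetic animals. Every menopausal/diabetic animal lay below every diabetic one, and the difference was -0.18 ± 0.06 (SE), 1.13-fold lower, with an adjusted p of 0.536 from limma. On the 6 arrays between the groups the ratio of Nid1 was below 0 on 4 and above on 2, the most negative being -0.71 for menopausal/diabetic 1 over diabetic 3. The group difference of Nid1 was -0.11 without menopausal/diabetic 1 and -0.10 without diabetic 3. A second clone of Nid1 that passed the filter differed by 0.03, on the other side of 0.

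Nid2 had levels of 0.05, 0.09 and 0.04 in menopausal/diabetic animals and -0.03, 0.0036 and -0.15 in diabetic animals. The groups did not overlap, and the difference was 0.12 ± 0.06 (SE, adjusted p = 0.624, limma), but it was -0.0098 without background correction. Lamc1, the laminin gamma chain shared by most kidney laminins, differed by 0.09 ± 0.07, and its 3 menopausal/diabetic levels of 0.01, 0.0041 and 0.12 overlapped the diabetic levels of 0.01, 0.0012 and -0.15. Without background correction it was -0.03. Lama3 differed by 0.06 ± 0.05 without overlap, but its clone was detected on 0 arrays. The collagen IV chains Col4a1, Col4a2 and Col4a5 differed by 0.0096 ± 0.10, 0.09 ± 0.08 and -0.01 ± 0.10. Col18a1, whose cleaved end is endostatin, differed by -0.05 ± 0.10, and Lama5, the laminin alpha chain of the mature glomerular basement membrane, by 0.02 ± 0.07. A second clone of Col18a1 differed by 0.10, on the other side of 0.

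Decorin (Dcn), a small proteoglycan that binds collagen fibrils, stood highest among the differences of the 54 members and was detected on 5 arrays. Its levels were 0.10, 0.16 and 0.05 in menopausal/diabetic animals, against -0.09, 0.02 and -0.23 in diabetic animals. All 3 menopausal/diabetic animals lay above all 3 diabetic ones, with diabetic 3 lowest. The difference was 0.20 ± 0.07 (SE), 1.15-fold higher, with an unadjusted p of 0.0285 and an adjusted p of 0.557 (limma). It was 0.07 without menopausal/diabetic 1 and 0.07 without diabetic 3. The ratio was above 0 on 5 of the 6 arrays between the groups. It was 0.86 for menopausal/diabetic 1 over diabetic 3. The other arrays gave from -0.13 for menopausal/diabetic 3 over diabetic 1 to 0.23 for menopausal/diabetic 2 over diabetic 1. Lumican (Lum), a related proteoglycan detected on all 12 arrays, differed by -0.02 ± 0.08.

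**Figure D2:**
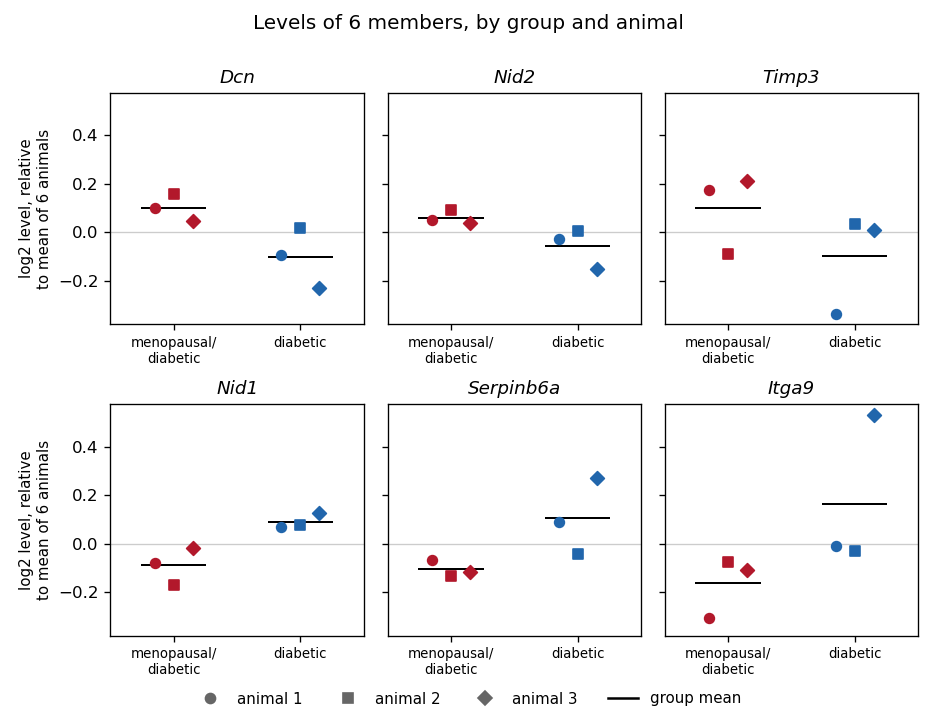
Log2 levels of 6 members in each animal, menopausal/diabetic at the left and diabetic at the right of each panel; points are animals, lines group means. The groups stand apart for Dcn, Nid2, Nid1, Serpinb6a and Itga9 and overlap for Timp3, and diabetic 3 is the extreme diabetic animal for Dcn, Nid2, Nid1, Serpinb6a and Itga9.

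The 5 other collagens differed by -0.04 to 0.10 and were dim. Col6a5, a chain of type VI collagen, had levels of 0.04, 0.01 and 0.08 in menopausal/diabetic animals and -0.04, -0.03 and -0.05 in diabetic animals. These groups did not overlap, the difference was 0.09 ± 0.04 (SE, adjusted p = 0.642, limma), and the clone was detected on 0 arrays. Col6a1, another type VI chain, differed by 0.10 ± 0.07, and menopausal/diabetic 1, at 0.18, stood above the other 5 animals, which lay between -0.09 and 0.0020.

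The 8 matrix proteases tested had a median difference of 0.0079, and none had an unadjusted p under 0.05. Mmp2, the gelatinase that digests collagen IV, had levels of 0.02, 0.03 and 0.0096 in menopausal/diabetic animals and 0.11, -0.04 and -0.13 in diabetic animals. The diabetic animals spread around the menopausal/diabetic ones, and the difference was 0.04 ± 0.07 (SE, 3 animals per group). The outermost were Adamts17 at 0.13 ± 0.08 and Adamts19 at -0.10 ± 0.06, both secreted proteases with poorly known substrates. Adamts17 was detected on 0 arrays, and its difference was -0.07 without diabetic 1. A second Adamts19 clone that passed the filter differed by 0.01, and the difference of Adamts19 was 0.04 without diabetic 3.

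The 3 inhibitors of the Timp family spread widely. Timp3, the member that stays bound to the matrix, was detected on all 12 arrays and had levels of 0.17, -0.09 and 0.21 in menopausal/diabetic animals against -0.34, 0.03 and 0.0083 in diabetic animals. Menopausal/diabetic 2 lay below diabetic 2 and 3, so the groups overlapped, and the difference of 0.20 ± 0.13 (SE, adjusted p = 0.705, limma) became -0.13 with a loess curve per print block. Timp2 differed by 0.12 ± 0.12. Timp4 had levels of -0.17, 0.05 and -0.12 in menopausal/diabetic animals and 0.08, 0.0011 and 0.16 in diabetic animals, a difference of -0.16 ± 0.07 (SE, adjusted p = 0.615, limma).

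Among the 13 serpins, a family of protease inhibitors and related proteins, 6 lay above 0 and 7 below, with a median of -0.00035. Serpinb6a, an intracellular inhibitor of serine proteases, had levels of -0.07, -0.13 and -0.12 in menopausal/diabetic animals and 0.09, -0.04 and 0.27 in diabetic animals. The groups did not overlap, although menopausal/diabetic 1 and diabetic 2 lay close together, and the difference was -0.21 ± 0.08 (SE), with an unadjusted p of 0.0393 and an adjusted p of 0.583 (limma). Without diabetic 3 it was -0.11. Serpinb1a, an inhibitor of neutrophil elastase, differed by -0.13 ± 0.09, Serpinb1c by -0.05 ± 0.05 and Serpinb6c by -0.04 ± 0.05. These genes have close relatives on mouse chromosome 13, and a cDNA clone of one may bind transcripts of another, which was not tested. Serpinh1, the chaperone that folds procollagen, differed by -0.00055 ± 0.09.

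The 7 integrins had a median difference of -0.0072. Itga9, the alpha chain of a receptor for tenascin-C, had the most negative difference of the 54 members, -0.33 ± 0.16 (SE, adjusted p = 0.625, limma). Its levels were -0.31, -0.08 and -0.11 in menopausal/diabetic animals and -0.0091, -0.03 and 0.53 in diabetic animals. The groups did not overlap, but the value rested on 1 animal and 1 array: menopausal/diabetic 1 over diabetic 3 gave -1.88, the other 5 arrays gave -0.15 to 0.23, the clone was detected on 0 arrays, and without diabetic 3 the difference was 0.02. Itgb1, the beta chain common to most matrix receptors, differed by -0.06 ± 0.11, and Itga3, its partner in a laminin receptor of podocytes and tubules, by 0.07 ± 0.06.

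Overlap and p depended on the arrays within the groups, which help place the animals. With only the 6 arrays that pair the groups, the difference of each named member is the same by design. The arrays within a group add nothing to the difference between groups. In that setting 1 member had groups that did not overlap and 0 had an unadjusted p under 0.05 (limma). These counts are given without the share over all tested, so they are not results about the members. Without diabetic 3, 12 of the 33 named members changed sign.

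The second question was how far the animals of a group differed from each other. Tested by limma's moderated F test on the 12 arrays, with the error between arrays, 146 of all 9955 (1.47%) differed among the diabetic animals at an adjusted p under 0.05, and 1 of the 54 members did, biglycan (Bgn). At an unadjusted p under 0.05 there were 9 members, against 13.1% of all tested. Among the menopausal/diabetic animals 0 (0%) of all tested had an adjusted p under 0.05 and so 0 members, with 2 members, against 5.15% of all tested, at an unadjusted p under 0.05. These p-values describe repeat hybridisations of these animals.

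Bgn encodes a small proteoglycan of the interstitium. Its levels were 0.24, -0.07 and 0.03 in menopausal/diabetic animals, against -0.0028, 0.21 and -0.40 in diabetic animals. Diabetic 3 was the lowest of the 6, and the groups overlapped. The adjusted p among the diabetic animals was 0.0259 (limma), and Bgn was detected on 9 arrays. The call was lost when any 1 of the 6 animals was left out (adjusted p of 0.0673 without diabetic 1 to 0.720 without diabetic 3), without background correction (0.404) and without the array whose identifiers oppose its title (0.155), among other settings. The difference between groups was 0.13 ± 0.16 (SE).

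Next in order came Col3a1, Sparc and Lamb1, none of which passed the threshold. Col3a1 had levels of -0.03, -0.06 and 0.07 in menopausal/diabetic animals and 0.27, 0.27 and -0.53 in diabetic animals (adjusted p among diabetic animals 0.0516, limma). Sparc, a collagen-binding matricellular protein also called osteonectin, had 0.10, 0.07 and -0.0092 in menopausal/diabetic animals and 0.39, -0.16 and -0.39 in diabetic animals (adjusted p 0.112). Lamb1, a laminin beta chain, had -0.05, 0.01 and 0.15 in menopausal/diabetic animals and 0.14, 0.07 and -0.31 in diabetic animals (adjusted p 0.189). In all 3 genes diabetic 3 lay below the other 5 animals, while the highest was diabetic 2 for Col3a1, diabetic 1 for Sparc and menopausal/diabetic 3 for Lamb1. Timp2 and Serping1, the inhibitor of complement C1, followed with adjusted p of 0.222 and 0.244, and diabetic 3 was again lowest. Both clones of Sparc put diabetic 3 below the mean of diabetic 1 and 2, by values of -0.51 and -0.26. The second clones of Lamb1, Col1a2 and Lamc1 put it above, at 0.07, 0.06 and 0.07, against -0.41, -0.29 and -0.16 for the brightest clones. Of the 9 members with more than 1 clone past the filter, 3 had all clones on the same side in this measure, and 5 did for the difference between groups.

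**Figure D3:**
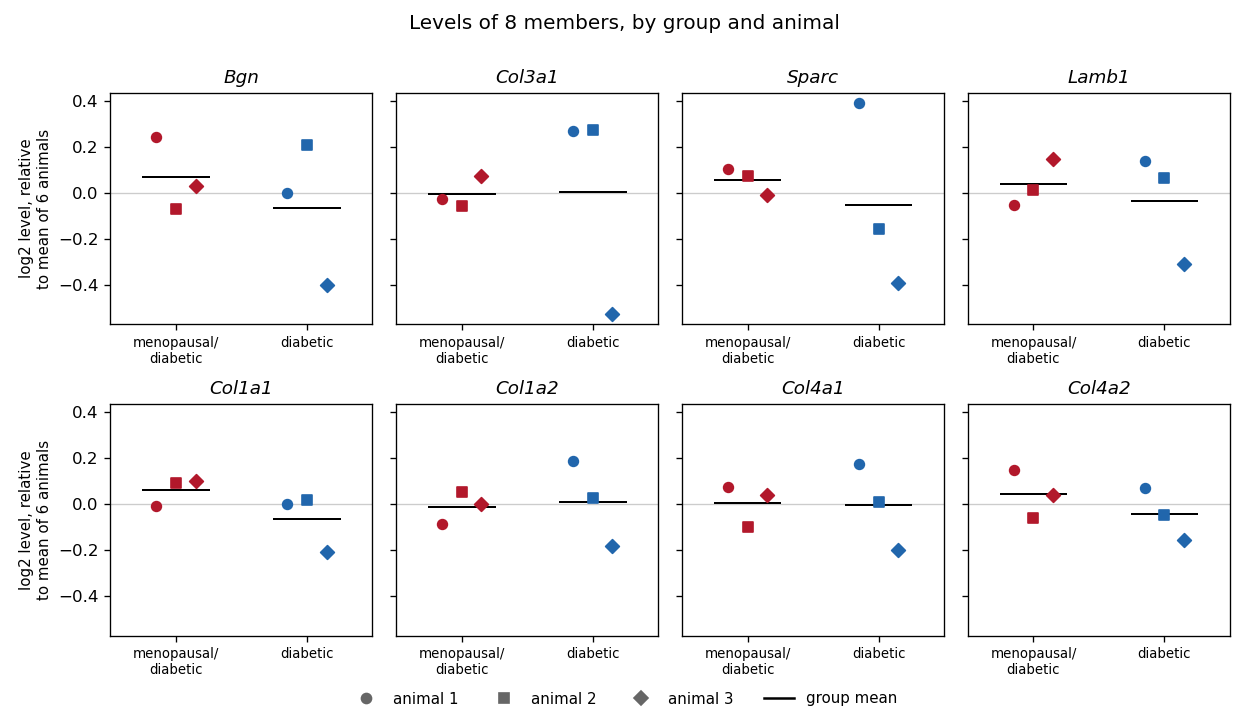
Log2 levels of 8 members in each animal, menopausal/diabetic at the left and diabetic at the right of each panel; points are animals, lines group means. Diabetic 3 (right diamond) is the lowest point in all 8 panels, from -0.53 for Col3a1 to -0.15 for Col4a2.

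Diabetic 3 was singled out after the levels had been seen, so what follows describes 1 animal and carries no test. It was the lowest of the 6 animals for 23 of the 54 members (42.6%), against 22.4% of all tested. The next animal in this count was menopausal/diabetic 1, lowest for 11 members (20.4%, against 18.1% of all tested). By role these 23 were 3 of 3 fibrillar collagens, 7 of 11 basement membrane genes, 3 of 4 adhesive and proteoglycan genes, 3 of 8 matrix proteases, 2 of 5 other collagens, 1 of 3 Timp genes, 3 of 13 serpins and 1 of 7 integrins. Of the 24 members detected on 6 or more arrays, diabetic 3 was lowest for 13 (54.2%), against 26.4% of all tested with the same detection. The median of diabetic 3 minus the mean of diabetic 1 and 2 was -0.29 for fibrillar collagens, -0.14 for basement membrane genes and -0.35 for adhesive and proteoglycan genes. It was 0.11 for the Timp genes, 0.06 for serpins, 0.04 for integrins, 0.015 for matrix proteases and -0.016 for other collagens. For the 3 fibrillar collagens the median is the value of 1 Col1a2 clone, detected on 4 arrays. The second Col1a2 clone gave 0.06, and Col1a1 was detected on 1 array. Over all 54 members the median was -0.013, against 0.0048 over all tested, so the members as a whole were hardly shifted. Without the 2 arrays whose ratios ran most strongly against the levels fitted from the others (menopausal/diabetic 1 with diabetic 2, and menopausal/diabetic 3 with 1), diabetic 3 was lowest for 16 members, against 18.5% of all tested.

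The ratios on its 4 arrays, 2 in each dye, can be read without the fit, but they still rest on the titles. The array with diabetic 2 is the one whose identifiers do not match its title. All ratios over diabetic 2 below come from that array, and the counts below were not repeated without it. Diabetic 3 had the lower signal on all 4 for 11 of the 54 members (20.4%), against 8.84% of all tested: Bgn, Col1a1, Col3a1, Col4a1, Col4a2, Col6a1, Lamb1, Lamc1, Sparc, Adamts9 and Serpinb9c. Of the 24 members detected on 6 or more arrays, 5 (20.8%) were lower on all 4, against 9.53% of all tested with the same detection. Several of the 11 were rarely detected: Col6a1 on 0 arrays, Col1a1 and Serpinb9c on 1 each, Col4a1 on 2 and Lamc1 on 4. Adamts9, detected on 0 arrays, had a fitted level of 0.03 in diabetic 3, above diabetic 1 and 2, so its level and its ratios point opposite ways. For Bgn the log2 ratios were -0.61 over menopausal/diabetic 1, -0.54 over menopausal/diabetic 2, -0.18 over diabetic 1 and -0.66 over diabetic 2. For Col3a1 they were -0.40 and -0.12 over menopausal/diabetic 1 and 2, and -0.996 and -1.04 over diabetic 1 and 2. For Sparc they were -0.76, -0.33, -0.62 and -0.26 in the same order. Each of these 12 ratios was below 0 in whichever dye diabetic 3 was labelled. Col4a1 and Col4a2, which form the most common collagen IV molecule, had ratios of -0.31 to -0.14 and -0.26 to -0.14.

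**Figure D4:**
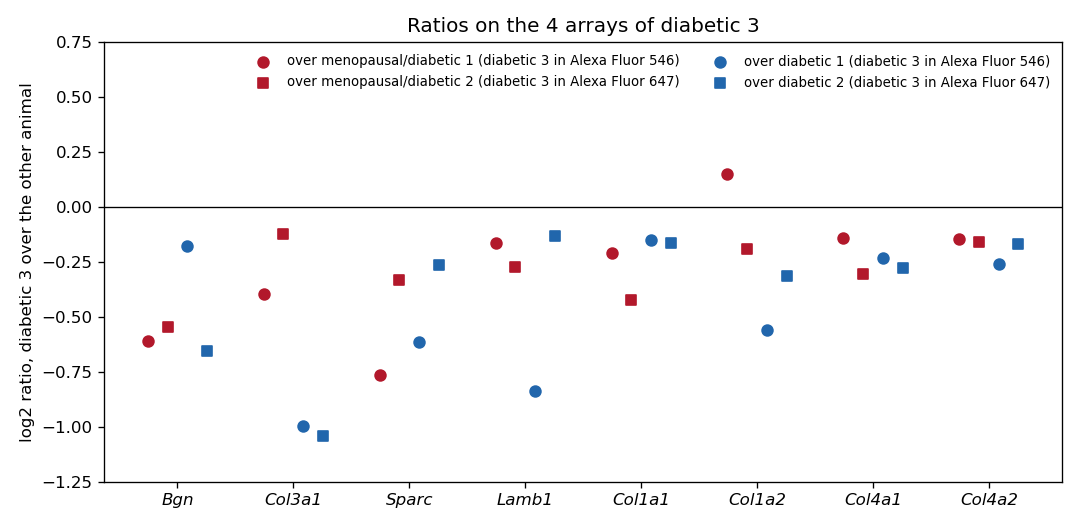
Log2 ratio of diabetic 3 over the other animal on each of its 4 arrays for 8 members; red points are arrays with menopausal/diabetic animals, blue points with diabetic animals, circles mark diabetic 3 in Alexa Fluor 546 and squares in Alexa Fluor 647. All points but 1 lie below 0, the exception being Col1a2 over menopausal/diabetic 1 at 0.15. The array with diabetic 2 is the one whose identifiers do not match its title.

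Markers of several cell types were also low in diabetic 3, those of the tubule by more than the matrix genes. All 4 proximal tubule markers tested (Lrp2, Miox, Gatm and Slc22a7, of 9 listed) were lowest in diabetic 3 and differed among the diabetic animals at an adjusted p of 0.0029 to 0.0090 (limma). Their mean level per menopausal/diabetic animal was 0.22, -0.0037 and 0.36, against 0.19, 0.44 and -1.20 in diabetic animals. Calb1 of the distal tubule, the 1 of 8 distal and collecting duct markers tested, stood at -1.36 in diabetic 3. Both endothelial markers tested (Emcn and Ehd3, of 10) were lowest in it, with a mean of -0.31, as were both fibroblast and mural markers (Cnn1 and Pdgfrb, of 9) with a mean of -0.10. Pdgfrb was detected on 1 array, and its level of -0.04 in diabetic 3 was close to the -0.03 of diabetic 2. Of the podocyte markers, Podxl was lowest in diabetic 3 and Cd2ap was not. The 3 macrophage markers tested (Lyz2, C1qa and C1qb, of 10) had a mean of -0.12 in diabetic 3, which was the lowest animal for 0 of them. Both blood markers (Hbb-b1 and Alas2, of 3) were highest in diabetic 3, with a mean of 0.29, though Alas2 was detected on 3 arrays. The part of these shifts in the matrix levels was not tested, and in whole cortex fewer cells of a type and less RNA per cell cannot be told apart.

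**Figure D5:**
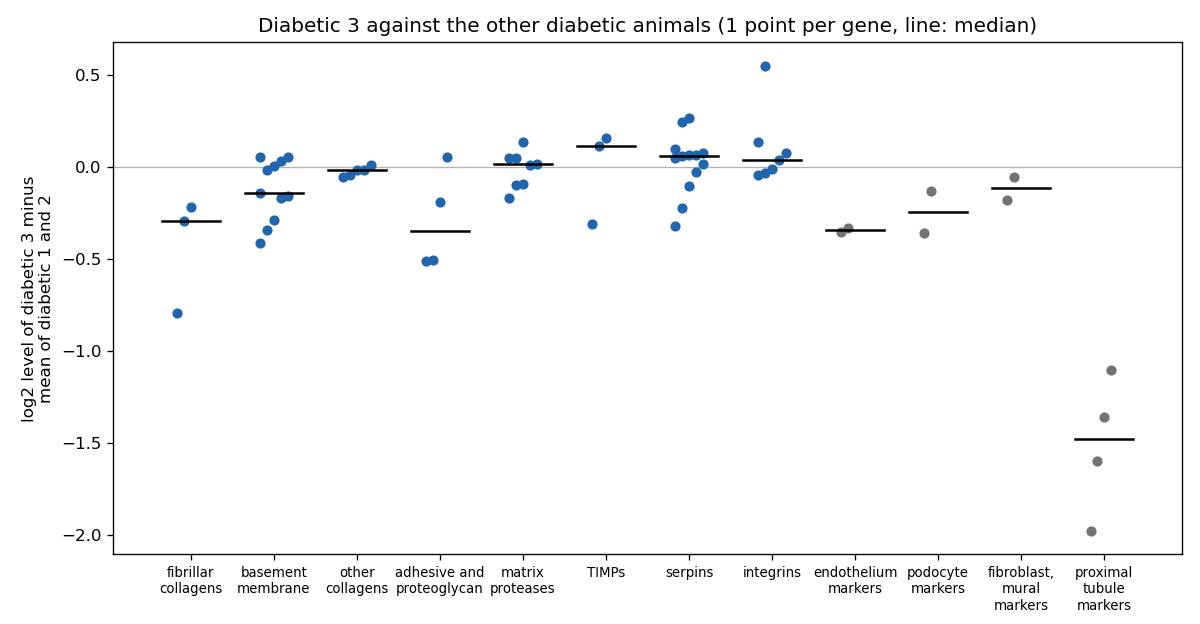
Log2 level of diabetic 3 minus the mean of diabetic 1 and 2, with 1 point per gene and lines at the medians; blue points are matrix members by role and grey points are cell type markers. The 3 fibrillar collagens (median -0.29, the value of 1 Col1a2 clone), basement membrane genes (-0.14) and adhesive and proteoglycan genes (-0.35) lie mostly below 0. Serpins and integrins lie around 0, and the 4 proximal tubule markers far below at a median of -1.48.

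Promoters of the 3 members with the smallest p among the diabetic animals are shown, since these members were low together in diabetic 3. They run from 250 bases before the annotated start to 50 after it, 5′ to 3′ on the coding strand, from RefSeq on GRCm38.p6. Promoter entries matched 37 of the 54 members tested. Bgn lies at chrX:73483351-73483650 (plus strand), Col3a1 at chr1:45311288-45311587 (plus strand) and Sparc at chr11:55420031-55420330 (minus strand). Capitals mark matches on either strand to the TATA box, searched as TATAAA, to the CCAAT box, or to the GC box, searched as GGGCGG.
Bgn: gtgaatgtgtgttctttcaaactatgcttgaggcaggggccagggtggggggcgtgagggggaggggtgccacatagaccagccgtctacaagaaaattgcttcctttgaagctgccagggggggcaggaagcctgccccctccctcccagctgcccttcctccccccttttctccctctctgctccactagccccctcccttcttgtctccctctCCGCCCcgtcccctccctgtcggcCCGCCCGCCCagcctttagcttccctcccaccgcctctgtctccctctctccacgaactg
Col3a1: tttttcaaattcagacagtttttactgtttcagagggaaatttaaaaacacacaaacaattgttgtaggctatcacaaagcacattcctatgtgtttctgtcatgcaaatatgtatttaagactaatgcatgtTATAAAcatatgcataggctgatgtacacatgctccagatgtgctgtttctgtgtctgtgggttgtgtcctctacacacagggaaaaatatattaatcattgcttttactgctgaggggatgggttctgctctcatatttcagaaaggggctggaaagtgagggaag
Sparc: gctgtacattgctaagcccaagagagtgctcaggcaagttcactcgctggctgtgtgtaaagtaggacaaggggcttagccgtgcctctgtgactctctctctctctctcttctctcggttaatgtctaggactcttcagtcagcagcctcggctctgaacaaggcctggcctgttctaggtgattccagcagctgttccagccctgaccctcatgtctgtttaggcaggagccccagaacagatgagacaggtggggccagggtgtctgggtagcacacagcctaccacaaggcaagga
The Bgn window held GGGCGG 3 times, all on the opposite strand, beginning at bases 217, 241 and 245, with the last 2 overlapping. The Col3a1 window held TATAAA at base 134, and the Sparc window none of the 3 motifs. Of 27025 promoters of this length, 14.2% held the TATA box, 37.9% the CCAAT box and 35.9% the GC box on either strand, and of the 37 member promoters 10.8%, 37.8% and 62.2% did. These are descriptions of letters.

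Genes around the matrix were read from 5 lists, for which 0 genes had an adjusted p under 0.05 between the groups (limma). Over all tested, 8.38% had an unadjusted p under 0.05, and 4854 of 9955 lay above 0. Of the TGF-beta list, the growth factor pathway that drives matrix synthesis, 9 of 25 were tested, with a median of 0.04. At an unadjusted p under 0.05 these held Smad1 at 0.22 ± 0.07 and Smad5 at -0.12 ± 0.05, both signal carriers of BMP receptors. Of the collagen processing genes 10 of 21 were tested, with a median of 0.0055. P3h2, a prolyl hydroxylase of collagen IV, at 0.33 ± 0.09 and Bmp1, which trims procollagen ends, at 0.44 ± 0.17 had an unadjusted p under 0.05. Of the plasminogen and cathepsin genes 10 of 17 were tested, with a median of 0.0063. Ctsl at 0.17 ± 0.07 and Lgmn at 0.39 ± 0.16, lysosomal proteases, lay on the higher side and Ctsz at -0.16 ± 0.05 on the lower side at that level. Of the matrix receptors and adaptors 9 of 19 were tested, with a median of 0.09 and 8 of 9 above 0. Fermt2, an activator of integrins, at 0.44 ± 0.07 (adjusted p 0.302) was the 1 under 0.05 unadjusted. Of the other matrix genes 6 of 20 were tested and none was.

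Smad1, Lgmn and Fermt2 lay in the 3 print blocks at the slide's upper left, where 31.3% of all tested had an unadjusted p under 0.05, against 7.05% elsewhere. The members Col1a2, Adamts1 and Serpinh1 were printed there too, and none of them had an unadjusted p under 0.05. Without these 3 the median difference of the members was 0.018. Diabetic 3 was then lowest for 20 of 51 members (39.2%), against 21.3% of all tested outside these blocks. The median of diabetic 3 minus the mean of diabetic 1 and 2 was then 0.0053 for the members and 0.0065 for all tested.

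The 11 members below the brightness filter were Fn1, Vim, Col2a1, Col5a2, Col12a1, Adamts10, Adamts12, Mmp23, Itga2b, Serpinb9f and Itgb3bp. Each was detected on at most 1 array. With no filter, fibronectin (Fn1) differed by 0.0056 ± 0.03 and vimentin (Vim), the filament protein of mesenchymal cells, by 0.16 ± 0.09 (SE, adjusted p = 0.730, limma). Vim had levels of 0.21, 0.03 and 0.01 in menopausal/diabetic animals and -0.05, -0.24 and 0.05 in diabetic animals, which overlapped. Itgb3bp matched the rule by its letters but encodes a centromere protein; it differed by 0.16 ± 0.07.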

How the data were processed

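Per the labels, total RNA of kidney cortex was amplified, copied to cDNA and coupled to Alexa Fluor dyes. Per the file headers, the deposited scanner files hold the mean intensity of each of 31200 spots and the median intensity of its background; the sources used here do not name the scanner software. The authors also deposited log2 ratios with no stated normalization. Of their 12 columns 0 matched the array of the same name best, so they served as an alternative, matched by correlation.

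Spots were numbered with rows counted from the slide bottom and named through the platform table; 18382 spots have 1 gene symbol, 508 several and 12310 none. limma 3.58.1 (R 4.3.3) corrected the background by normexp (offset 50) and normalized each array's ratios by loess; both spots of a clone were averaged, the dimmest 25% of clones dropped, and the brightest clone of a gene kept, giving 5869 named genes and 4086 unnamed clones. In total 23 spots without background were left out. Least squares gave 1 level per animal and a dye term; the 6 levels were compared with lmFit and eBayes, and animals of a group by the moderated F test on arrays, at an adjusted p of 0.05 (Benjamini-Hochberg). An exact permutation of 3 against 3 cannot give a two-sided p below 0.1. Both procedures were tested on simulated data with independent noise and known animals. Those data do not show whether the titles of the real arrays are right.

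Members and lists were chosen with earlier results of these data known. Named were members past either threshold, the 8 with the smallest p on each side, the 6 with the smallest p among animals of a group, and 34 listed textbook genes where tested, 33 members in all. Alternatives covered background, normalization, filter, clone choice, arrays, animals, dye channels and a replicate block.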

Additional observations from a re-analysis of the deposited data

How the results depend on the processing

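With 3 animals a group, small differences cannot be resolved, and the direction of the median member difference was within the shifts between settings. It was -0.0040 without background correction, 0.0044 with a loess curve per print block, 0.0601 with subtracted background (25 members left) and 0.0328 with the dimmest 50% left out. It was 0.0252 without the 2 arrays whose ratios ran most strongly against the levels fitted from the others, and 0.0383 from separate channels. Members whose groups did not overlap numbered 3 with subtracted background, 4 with the dimmest 50% left out and 1 with the 6 between-group arrays alone. Those with an unadjusted p under 0.05 numbered 5 with scaled arrays, 5 with the deposited ratios, 1 from separate channels and 0 when arrays within the groups were dropped. Scaled arrays gave 2 genes past the threshold between groups, none a member. Diabetic 3 was lowest for 11 of 25 members with subtracted background. Genes that differed among diabetic animals numbered 42 without background correction, 63 with subtraction, 273 with loess per block, 68 scaled, 77 from deposited ratios, 64 without the 2 arrays and 31 without the array of another identifier. Members among them numbered 0 without background correction, scaled and without either set of arrays, 1 with subtraction (Col4a1, not Bgn), 4 with loess per block (Bgn, Col3a1, Lamb1, Sparc), 2 with the dimmest 50% left out and 2 with clones averaged (Bgn, Col3a1 each), and 2 from deposited ratios (Col3a1, Col4a1). The adjusted p of Bgn was 0.404 uncorrected, 0.157 subtracted, 0.0836 scaled, 0.231 from deposited ratios, 0.0977 without the 2 arrays and 0.155 without the array of another identifier. Leaving out each animal in turn gave 0 to 44 genes between groups (44 without diabetic 2), a median of 0.0014 to 0.0306, 7 to 16 members not overlapping (16 without menopausal/diabetic 2), 1 to 7 members with an unadjusted p under 0.05, 0 to 109 genes and 0 members among diabetic animals, 20 to 23 members lowest in diabetic 3, and an adjusted p of Bgn of 0.0673 to 0.720. The cause of these shifts was not tested. The member counts in this section are given without the share over all tested in the same setting. They are therefore not results about the members. With 1 animal left out, 2 animals face 3, and groups then separate more often whatever the gene. Animals share only a number: deviations of same-numbered animals correlated across genes at -0.04, -0.37 and -0.17. With that number as a replicate block 0 genes passed and 4 members had an unadjusted p under 0.05 (limma). Such a block leaves each difference the same by design, so the median stayed 0.016. Dcn, Col6a5, Nid1 and Serpinb6a kept their sign under every alternative that measured them, but not their size. So did Col1a1, Timp4, Serpinb1c, Col4a2 and Itga3. Some alternatives, such as the 6 between-group arrays and the replicate block, cannot change a difference. The first 4 were also picked for small p in these data. Differences ran from 0.04 to 0.42 for Dcn, 0.03 to 0.26 for Col6a5, -0.42 to -0.04 for Nid1 and -0.33 to -0.10 for Serpinb6a. For each of these 4 the value nearest 0 came without background correction.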
